A study of Rattus norvegicus with 12 samples.

Results

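The methionine, transsulfuration and one-carbon enzymes described here are 7 genes, Mat1a, Gnmt, Bhmt, Cbs, Cth, Dmgdh and Sardh. They were chosen by name, with earlier results of these data known. The genes were found through the probe sets whose platform annotation names exactly 1 gene. This gave 8 probe sets of 12783 and 7 genes of 10411. Sardh had 2 probe sets and each other gene had 1. Rats with a thermal injury (a burn) were compared with sham-treated control rats on Affymetrix RAE230A arrays at 1, 2, 4 and 7 days, with 3 samples per day. Every sample pairs a sham channel (channel 1 in the labels) with a thermal injury channel (channel 2) and gave 1 log2 ratio per probe set. The 9 samples of days 2, 4 and 7 were used. The tissue, strain, sex, age and the size of the burn are not named in the sources used here, and no source says that the 3 samples taken on 1 day are separate animals. A p-value therefore measures only the spread between these samples, which may be technical. Which channel was divided by which is not stated. Injury over sham is likely from the channel numbers, and a value above 0 is read as higher after the injury throughout, relative to the median of the array.

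Methionine is converted to S-adenosylmethionine, the main methyl donor of the cell, by methionine adenosyltransferase, whose liver form is encoded by Mat1a. Once the methyl group has been given away, the product is hydrolysed to homocysteine. Homocysteine is either methylated back to methionine, in liver in part by the betaine-dependent enzyme Bhmt, or passed by Cbs and Cth into cysteine, the precursor of glutathione and taurine. Gnmt uses S-adenosylmethionine to methylate glycine to sarcosine and so disposes of surplus methyl groups. Dmgdh and Sardh, mitochondrial flavoproteins, strip the methyl groups of dimethylglycine and sarcosine and hand them to folate. This set of enzymes is abundant in liver, and several also work in kidney and pancreas.

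The start sites of these genes are shown to set out what the members share at their promoters, since the choice of members did not use sequence. RefSeq windows on GRCr8 were matched by symbol for 6 of the 7 genes, with 2 start sites for Sardh, and none was matched for Dmgdh. Each line gives the 50 bases before and the first 10 bases after an annotated start, 5′ to 3′ on the gene's strand, with the letters TATAA in capitals.
Mat1a, chr16:17017118-17017177, plus strand: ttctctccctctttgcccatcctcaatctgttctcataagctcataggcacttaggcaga
Gnmt, chr9:21752232-21752291, plus strand: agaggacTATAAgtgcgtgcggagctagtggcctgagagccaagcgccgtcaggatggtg
Bhmt, chr2:26614420-26614479, minus strand: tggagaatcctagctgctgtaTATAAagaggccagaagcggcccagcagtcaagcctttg
Cbs, chr20:9733916-9733975, minus strand: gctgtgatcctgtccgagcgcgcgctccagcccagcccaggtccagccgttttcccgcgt
Cth, chr2:249661057-249661116, minus strand: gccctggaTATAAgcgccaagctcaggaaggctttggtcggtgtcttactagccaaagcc
Sardh first start, chr3:30972128-30972187, minus strand: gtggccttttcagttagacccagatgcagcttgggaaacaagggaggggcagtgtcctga
Sardh second start, chr3:30971648-30971707, minus strand: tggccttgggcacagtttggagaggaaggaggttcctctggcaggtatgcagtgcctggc

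The letters TATAA, the core of the TATA box, stood on the sense strand of these 60 bases in 3 of the 7 windows, those of Gnmt, Bhmt and Cth, beginning 43, 29 and 42 bases before the start. They stood there in 4.65% of the 33469 windows of the table on the sense strand and in 3.25% on the other strand, which held them in 0 of the 7. The letters CCAAT occurred on either strand of the full 300 bases (250 before and 50 after the start) in 5 of the 7 windows, against 37.5% of all windows. The motifs were chosen after the sequences had been seen, and a match is a description of these letters. Bhmt and Dmgdh lie near each other on chromosome 2, with 2 protein-coding genes between them, Rpl36l7 and Bhmt2, neither of which has a probe set that names it alone. The Bhmt and Dmgdh ratios differed by a root mean square of 0.41 over the 9 arrays, in log2 units. The 21 pairs of members ran from 0.23 to 0.61. Bhmt and Dmgdh themselves had root mean squares of 0.551 and 0.585. The difference depends on such sizes, so it does not rank the pairs by likeness.

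The 7 enzyme genes had mean log2 ratios between -0.33 and 0.17 at day 2, and at day 7 the mean log2 ratio of each was below 0, with Dmgdh, Bhmt, Cth and Cbs between -0.67 and -0.41. Of the 7 genes, 5 had a mean above 0 at day 2, 2 at day 4 and 0 at day 7. The median over the 7 was 0.089 at day 2, -0.14 at day 4 and -0.41 at day 7, while the median of all 10411 genes was 0.0047, 0.0063 and -0.013. Mean ratios below 0 were found for 49.2% of all genes at day 2, 49.0% at day 4 and 51.6% at day 7. Since the members were chosen with earlier results known, the shares of all genes given here are no test of the set. None of the 7 passed an adjusted p of 0.05 in limma at any day, in the mean over the 3 days or between days. At each of days 2, 4 and 7, and between days, the same fit called 0% of all genes. In the mean over the 3 days it called 4 of 10411, or 0.0384%. At an unadjusted p under 0.05 the members numbered 0 at day 2, 0 at day 4 and 3 at day 7 (Cbs, Cth and Dmgdh, all lower), where 7.77%, 8.81% and 10.9% of all genes reached that level, 5.36% of all genes being lower at day 7. The day 7 count of 3 was 1 without centring, 1 with the replicate number as a block, 2 with the arrays of day 7 alone, 2 with array weights and 4 with a variance prior that follows brightness. It was 0 without sample 3 of day 7, and 1 or 2 without any other single sample of the 9. In the mean over days, 1 member (Dmgdh) reached it (3 with the variance prior that follows brightness, and 1 or 2 when a single sample was left out), against 8.98% of all genes, and 6 of the 7 were below 0, against 49.5% of all genes. The count of 7 members below 0 at day 7 came to 6 without sample 2, where Sardh was at 0.0090. It also came to 6 without sample 3, where Gnmt was at 0.15. It stayed at 7 without centring, where the day 7 means of Gnmt and Sardh lay closer to 0. Centring lowered each sample of day 7, for Gnmt from 0.12, 0.28 and -0.43 to 0.097, 0.21 and -0.59.

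**Figure D1:**
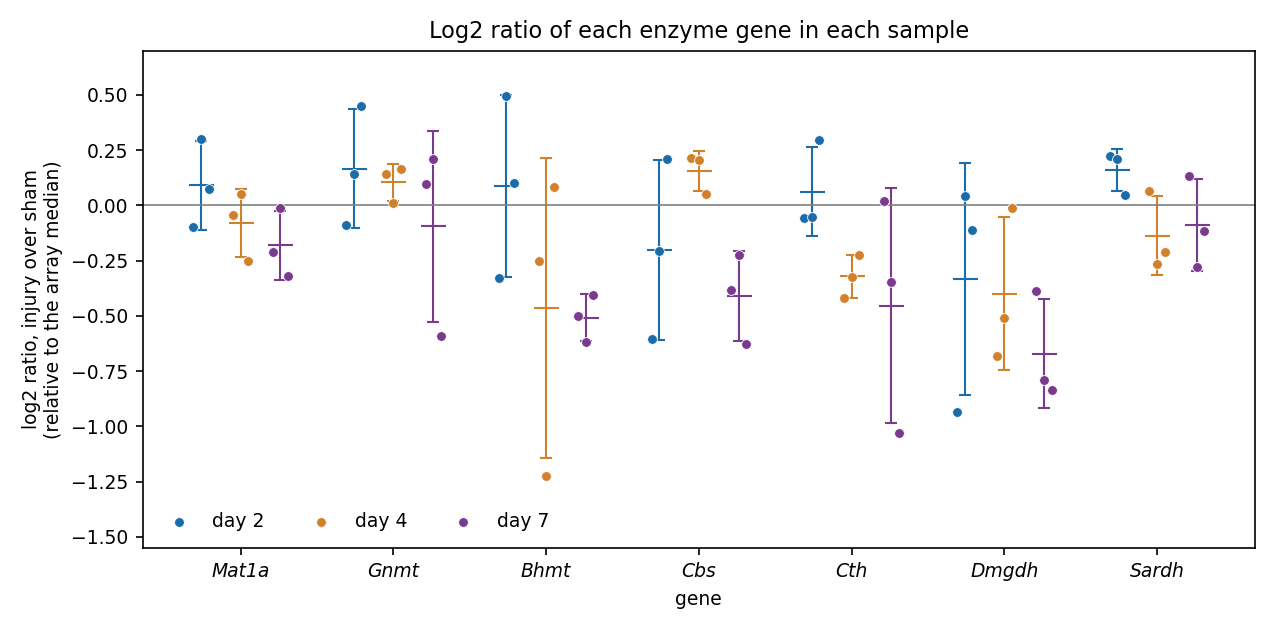
Log2 ratio of injury over sham (vertical axis, relative to the array median) for the 7 genes (horizontal axis) in each of the 9 samples. Points are samples, coloured by day, and each horizontal tick with its bar is the mean ± SD of 3 samples. At day 7 all 3 points of Mat1a, Bhmt, Cbs and Dmgdh lie below 0.

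Dmgdh, which oxidizes dimethylglycine to sarcosine, had the mean farthest from 0 of the 7, on the side read as lower after the injury. Its log2 ratio was -0.93, 0.042 and -0.11 in samples 1 to 3 of day 2, then -0.68, -0.51 and -0.013 at day 4, and -0.39, -0.79 and -0.84 at day 7. The ratio was thus below 0 in 8 of 9 samples, and the ranges of the 3 days overlapped. Being below 0 in at least 8 of the 9 samples was a property of 3.07% of all genes. Dmgdh is singled out here for its mean in these same samples, so that share is no test of it. Its mean over the 9 samples was -0.47 (SE 0.13, 95% confidence interval -0.76 to -0.18), a level 0.723 times that of the sham channel, or 1.38 times if the ratio runs the other way, with an unadjusted p of 0.0057 and an adjusted p of 0.369 in limma. By day it stood at -0.33 ± 0.52, -0.40 ± 0.35 and -0.67 ± 0.25 (SD, n = 3 each). The adjusted p at day 7 was 0.359 (unadjusted 0.0149), and day 7 minus day 2 was -0.34 with an interval of -1.05 to 0.37, so a fall or a rise between those days cannot be told apart.

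Sardh, which oxidizes sarcosine to glycine and follows Dmgdh in the same chain, stayed near 0. Averaged over its 2 probe sets it was at 0.22, 0.21 and 0.049 at day 2, at 0.067, -0.26 and -0.21 at day 4 and at 0.13, -0.28 and -0.11 at day 7. All 3 samples of day 2 were above 0, as for 13.8% of all genes, and the other days had both signs. The mean over the 9 samples was -0.021 (SE 0.076, interval -0.20 to 0.15). The 2 probe sets did not read alike. The one designed on AF067650 averaged 0.30 ± 0.28, -0.20 ± 0.38 and 0.082 ± 0.23 at days 2, 4 and 7, and the one on AI103641 averaged 0.018 ± 0.12, -0.074 ± 0.034 and -0.26 ± 0.35 (SD, n = 3 each). They had opposite signs in 3 of 9 arrays and differed by -0.38 to 0.80.

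Bhmt, which uses betaine to remethylate homocysteine, was at -0.33, 0.49 and 0.10 in the samples of day 2, at -0.25, -1.23 and 0.082 at day 4 and at -0.50, -0.62 and -0.41 at day 7. At day 7 the 3 samples lay close together, and all 3 were below each sample of day 2. Such a separation of day 7 below day 2 was seen for 7.15% of all genes, and Bhmt was the 1 member that showed it. The day 7 mean was -0.51 ± 0.11 (SD, n = 3), a level 0.703 times that of sham, or 1.42 times if the ratio runs the other way, with an adjusted p of 0.509 in limma. The difference from day 2 was -0.60 (interval -1.41 to 0.22, adjusted p = 0.712). The day 4 mean of -0.47 ± 0.68 rested on sample 2, and without that sample it was -0.085. Sample 2 of day 4 also had the highest median of the exocrine pancreas markers, at 2.53. That median was 1.33 in sample 3 of day 4, where Bhmt was at 0.082, and -0.020 in sample 1, where Bhmt was at -0.25. The part of that tissue's RNA in the Bhmt values was not tested.

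Cbs, which joins homocysteine with serine, had values of -0.61, -0.21 and 0.21 at day 2, of 0.21, 0.20 and 0.053 at day 4, and of -0.38, -0.22 and -0.63 at day 7. All 3 samples were above 0 at day 4, as for 18.3% of all genes, and all 3 were below 0 at day 7, as for 18.0%. The means were -0.20 ± 0.41, 0.16 ± 0.090 and -0.41 ± 0.20 (SD, n = 3 each), the last with an adjusted p of 0.427. Day 7 lay entirely below day 4, a separation seen for 11.1% of all genes. The difference was -0.57 (SE 0.24, interval -1.11 to -0.022), with an unadjusted p of 0.0432 and an adjusted p of 0.411 in limma, and 11.7% of all genes had an unadjusted p under 0.05 in that comparison.

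Cth, which cleaves cystathionine to cysteine, was at -0.056, -0.053 and 0.29 at day 2, at -0.42, -0.32 and -0.22 at day 4 and at 0.018, -0.35 and -1.03 at day 7. The 3 samples of day 4 lay below the 3 of day 2, as for 7.03% of all genes, while day 7 spread over both. Day 4 had a mean of -0.32 ± 0.098 (SD, n = 3; adjusted p = 0.666) and a difference from day 2 of -0.38 (interval -1.01 to 0.25). The wider day 7 mean of -0.45 ± 0.53 (adjusted p = 0.448) came to -0.16 without sample 3. Over the 9 samples Cth was at -0.24 (SE 0.11, interval -0.50 to 0.020), with 7 samples below 0.

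Mat1a, which makes S-adenosylmethionine, was within 0.32 of 0 in each sample. It was at -0.10, 0.30 and 0.074 at day 2, at -0.046, 0.052 and -0.25 at day 4 and at -0.21, -0.014 and -0.32 at day 7. Its mean over the 9 samples was -0.057 (SE 0.077), and the 95% confidence interval ran from -0.23 to 0.12. Gnmt, which consumes S-adenosylmethionine, was at -0.090, 0.14 and 0.45 at day 2, at 0.14, 0.0097 and 0.16 at day 4 and at 0.097, 0.21 and -0.59 at day 7. Gnmt was above 0 in 7 of 9 samples, with a mean of 0.059 (SE 0.10, interval -0.18 to 0.30). Its 1 value well below 0 came from sample 3 of day 7.

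**Figure D2:**
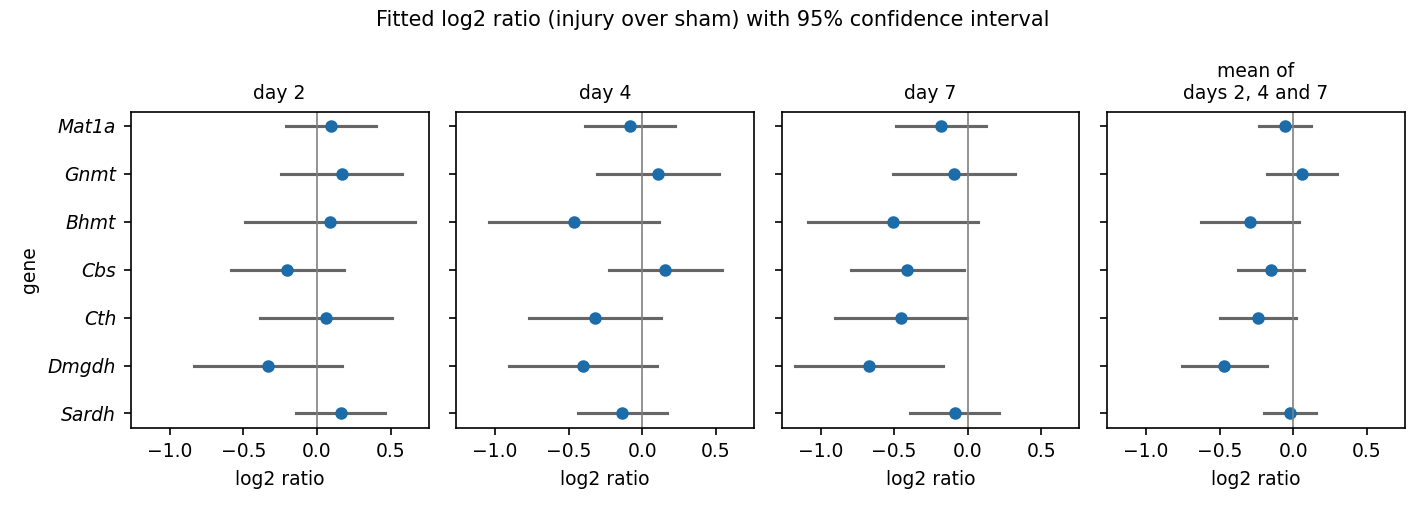
Fitted log2 ratio of injury over sham (horizontal axis) with its 95% confidence interval for each of the 7 genes (vertical axis), from limma on the 9 samples, at days 2, 4 and 7 and for the mean of the 3 days. At day 7 the intervals of Cbs, Cth and Dmgdh end below 0, and in the mean of the 3 days that of Dmgdh does, with an upper bound of -0.18. These intervals are not adjusted for the number of genes.

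Across the whole set, no member's difference between days passed. At an unadjusted p under 0.05 in limma, day 4 minus day 2 had 0 members (7.59% of all genes). Day 7 minus day 2 had 0 (7.45%), and day 7 minus day 4 had 1, Cbs (11.7%). Of the 7 genes, 6 were lower at day 4 than at day 2 (48.2% of all genes), 7 were lower at day 7 than at day 2 (51.7%) and 6 were lower at day 7 than at day 4 (51.4%), and the comparisons share samples. The adjusted p of the F test over the 3 days (limma) lay between 0.583 for Cbs and 0.849 for Gnmt, with 10% of all genes at an unadjusted p under 0.05 and 0% called. The smallest root mean square difference between 2 members was that of Mat1a and Sardh, at 0.23. The largest was that of Gnmt and Dmgdh, at 0.61. Mat1a and Sardh each had a root mean square of 0.19 about 0, below their difference from each other. The root mean square difference depends on the size of the ratios as well as on their pattern. Of all other genes, Acp2 (0.11) and Cul1 (0.11) were closest to Mat1a by that measure over the 9 arrays, Ahcy and Parp16 to Gnmt (0.13 each), Mfsd6 (0.25) and Cyp3a18 (0.26) to Bhmt, Haao and Atox1 to Cbs (0.14 each), Ganab and Amotl2 to Cth (0.20 each), Pdap1 (0.23) and Cyp2d4 (0.24) to Dmgdh, and Dcaf8 (0.099) and Zyx (0.10) to Sardh. Ahcy, which splits S-adenosylhomocysteine to homocysteine, is the gene of this group that belongs to the same cycle. The median such difference over all genes was between 0.45 and 0.73, depending on the member.

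By sample, 7 of the 9 arrays had at least 4 of the 7 members below 0. The number of members below 0 was 6, 2 and 1 in samples 1 to 3 of day 2, 4 in each sample of day 4, and 4, 6 and 7 in samples 1 to 3 of day 7. The median of the 7 was -0.59 in sample 3 of day 7 and between -0.28 and 0.14 in the other 8 samples. The control probe sets of actin differed between the 3′ and the 5′ end of the message by -0.79, -0.31 and -0.061 at day 2, -0.35, 0.38 and 0.23 at day 4, and -0.88, -0.44 and -0.88 at day 7, on the log2 scale, where a value below 0 means relatively less signal near the 3′ end after the injury. Those of GAPDH differed by -0.42, -0.19 and 0.11, by 0.14, 0.31 and -0.081, and by -0.39, -0.21 and -0.80. The part of RNA quality in the members' values was not tested.

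**Figure D3:**
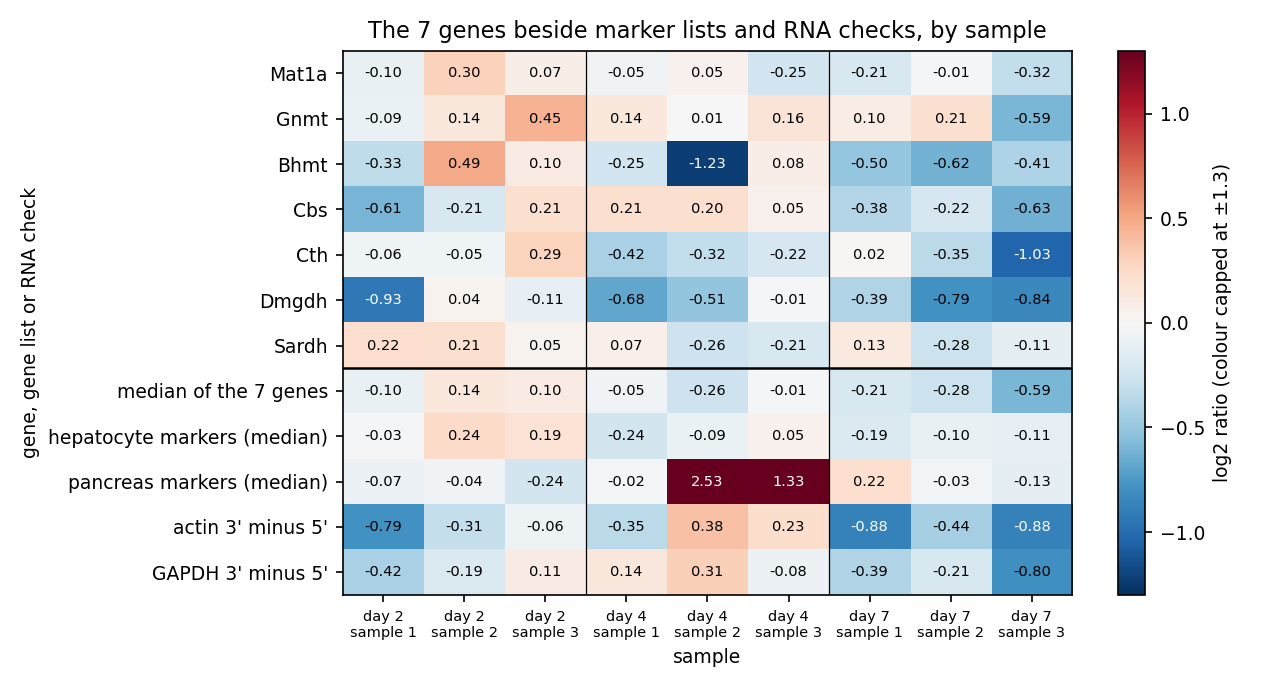
Log2 ratio of injury over sham (colour and printed number, colour capped at ±1.3) by sample (columns) for the 7 genes and, below the line, the medians of the 7 genes and of the hepatocyte and exocrine pancreas markers, and the 3′ minus 5′ differences of the actin and GAPDH control probe sets. Sample 3 of day 7 is below 0 in each of the 7 genes, and the pancreas markers are at 2.53 and 1.33 in samples 2 and 3 of day 4.

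Markers of cell types that a sample could hold were set beside these values. Of 13 hepatocyte markers measured, 12 had signals too bright for the numbers behind their ratios to be recovered. So did 5 of 9 macrophage, 3 of 6 red cell and 2 of 10 stellate cell and fibroblast markers. It held for 1 of 5 endothelial and 1 of 14 exocrine pancreas markers. The counts were 0 of 11 kidney tubule, 0 of 10 skeletal muscle, 0 of 5 neutrophil and 0 of 4 bile duct markers. Of the 72 ratios of the members' probe sets, 5 were recovered (6.94%, against 86.5% of all). The hepatocyte markers had a median ratio of 0.13 at day 2, -0.13 at day 4 and -0.13 at day 7, with 12 of 13, 4 of 13 and 1 of 13 above 0. The median of the members had the sign of the hepatocyte median at each day, with unlike sizes at day 7 (-0.41 and -0.13). In sample 3 of day 4 the signs differed, at -0.013 for the members and 0.054 for the hepatocyte markers. None of the 13 hepatocyte markers was called at any day (limma), and at day 7 1 was higher and 1 lower at an unadjusted p under 0.05. For any ratio below 0 in bulk samples, fewer cells of a type and less RNA per cell cannot be told apart. The exocrine pancreas markers had a median of -0.16, 1.21 and -0.032 at days 2, 4 and 7, with 13 of 14 above 0 at day 4. The medians at day 7 were 0.73 for 5 neutrophil markers, -0.39 for 5 endothelial markers, -0.22 for 10 stellate cell and fibroblast markers, -0.075 for 9 macrophage markers, 0.32 for 6 red cell markers, -0.28 for 4 bile duct markers, 0.35 for 11 kidney tubule markers and 0.073 for 10 skeletal muscle markers. Their part in the members' values was not tested.

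The wider pathway was read from 95 related genes in 7 lists, of which 76 were measured. None passed an adjusted p of 0.05 at any of the 3 days or in their mean. The related genes had a median of 0.021 at day 2, 0.093 at day 4 and -0.096 at day 7, with 36, 24 and 51 of the 76 below 0. At day 7 those with an unadjusted p under 0.05 were 1 higher and 9 lower of 76, where 558 of all 10411 genes (5.36%) were lower and 581 higher. The share of all genes below 0 at that day was 51.6%. In the cysteine and glutathione list 12 of 16 genes were below 0 at day 7 (median -0.17) and 5 of these had an unadjusted p under 0.05. In the methyltransferase list 9 of 11 were below 0 (median -0.077) and in the choline and betaine list 4 of 5 (median -0.22). The methionine cycle list had a median of 0.070 at that day, with 3 of 7 below 0, the folate list -0.065 (10 of 16), the serine and glycine list -0.068 (6 of 10) and the polyamine and salvage list -0.10 (7 of 11).

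Among the methionine cycle genes, Mat2b, a regulatory subunit of the Mat2a enzyme, had a mean over the 9 samples of 0.12, Ahcyl2 of 0.045, Ahcyl1 of -0.081 and Mat2a, the adenosyltransferase of tissues other than liver, of -0.11. By day, Mat2a was at -0.0047, -0.44 and 0.12 at days 2, 4 and 7, and Mat2b at 0.062, 0.31 and -0.011. In the choline and betaine list, which includes the electron acceptors of Dmgdh and Sardh, the choline transporter Slc44a1 was at 0.19, Aldh7a1, which makes betaine from its aldehyde, at -0.037, Etfa at -0.075 and Etfdh, which passes electrons from these flavoproteins to ubiquinone, at -0.15.

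In the folate list Aldh1l1 was below 0 in 9 of 9 samples. It oxidizes formyl-tetrahydrofolate and restores the free folate that Dmgdh and Sardh use. Of all genes 0.547% were below 0 in 9 of 9 samples. Aldh1l1 was picked for its low moderated t in these same samples, so that share is no test of it. The Aldh1l1 values ran from -0.68 to -0.019 with a median of -0.32, and the mean was -0.32 (SE 0.080, adjusted p = 0.346 in limma). Ftcd, which hands a one-carbon unit from histidine breakdown to folate, was at 0.19 with 8 of 9 samples above 0, the folate receptor Folr2 at 0.17 and thymidylate synthase, Tyms, at -0.17. In the serine and glycine list Agxt, which forms glycine from glyoxylate, was at 0.21 and the glycine cleavage gene Gldc at 0.19, while Psat1 of serine synthesis was at -0.14 and the D-amino acid oxidase Dao at -0.15.

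Downstream of Cth, Gclm, the modifier subunit of the first enzyme of glutathione synthesis, was below 0 in 9 of 9 samples with a mean of -0.25 (SE 0.081, adjusted p = 0.412). Ethe1, which oxidizes persulfide in mitochondria, was at -0.33 (SE 0.11, adjusted p = 0.424) with 8 of 9 below 0, and its sample 3 of day 7 was at -1.29. Sqor, which oxidizes hydrogen sulfide, was at 0.33 and the aspartate aminotransferase Got1 at 0.44, each with 6 of 9 above 0. Among the methyltransferases Inmt, which methylates indolamines, had the lowest mean of the related genes named here, at -0.99 (SE 0.28, adjusted p = 0.380), with samples from -2.27 to 0.98. Pemt, a large consumer of S-adenosylmethionine that makes phosphatidylcholine, was at 0.21 (SE 0.070, adjusted p = 0.432) with 7 of 9 above 0, Coq5 was at 0.14 and the creatine synthesis gene Gamt at -0.13. In the polyamine and salvage list Sat1, which acetylates polyamines, was at 0.28 with 8 of 9 above 0, Amd1 at 0.14, Apip at -0.089 and Odc1, which makes putrescine, at -0.15. Of the 28 related genes picked by moderated t, none passed. The pick used these same samples, so how many samples lay on 1 side of 0 is partly a result of it.

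**Figure D4:**
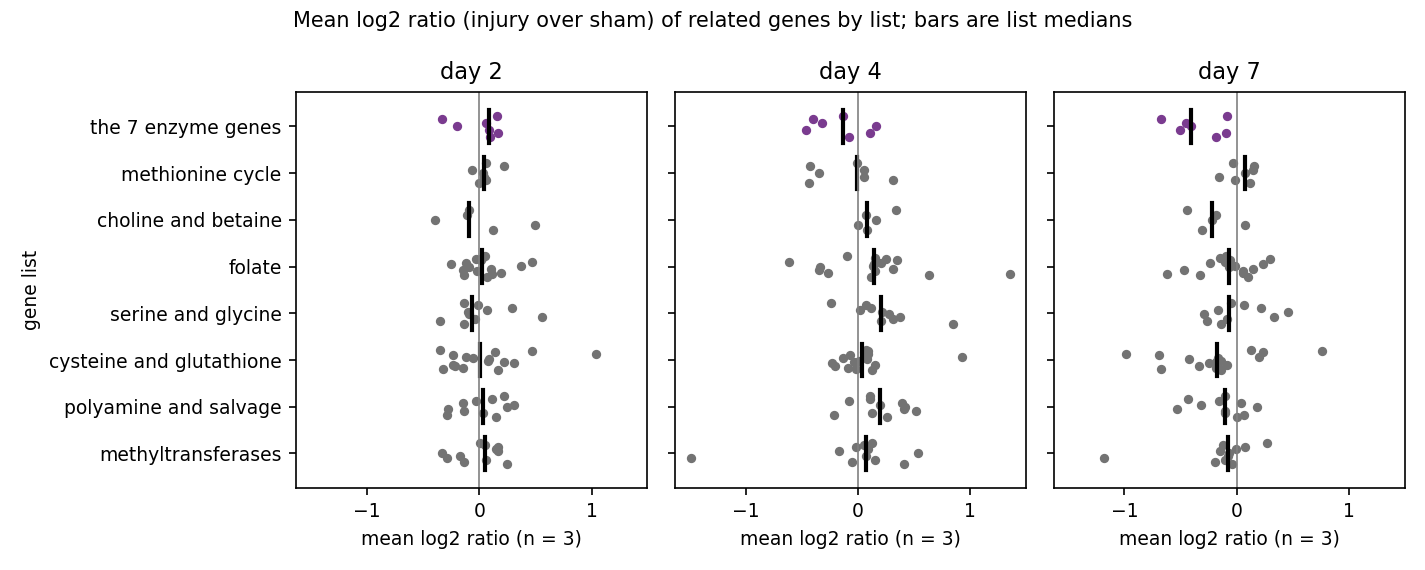
Mean log2 ratio of injury over sham over 3 samples (horizontal axis) for the 7 enzyme genes and the 76 related genes in 7 lists (vertical axis), at days 2, 4 and 7. Points are genes and black bars list medians. At day 7 the median of the 7 enzyme genes is at -0.41 and that of the methionine cycle list at 0.070.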

How the data were processed

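The deposited table holds log2 ratios of 2 array signals, 1 for every sample at every probe set. Neither the scaling nor the software that the authors used for these log2 values is given in the sources used here. After 57 of 15923 probe sets, all controls, were left out, arrays were centred on the median of the other 15866 (medians -0.13 to 0.16 before), and the probe sets that the platform annotation (12783 with 1 symbol, 312 with several, 2771 with none) gives to 1 gene were averaged. Of the named probe sets, 12748 were found by gene ID in the RefSeq table. limma 3.58.1 in R 4.3.3 (lmFit, eBayes, a mean per day over 9 samples, 6 residual degrees of freedom) was run on 10411 genes with Benjamini-Hochberg adjustment at 0.05. The number of arrays limits the precision. Tested on simulated data with these 10411 genes, 50 of them changed at each size, it recovered 0% at a log2 change of 0.5 at day 7, 40% at 1 and 72% at 2. For the mean of the 3 days it recovered 32%, 68% and 94%. Of the unchanged genes, 5 were called at day 7 and 8 in the mean. The noise was normal with the spread of each gene. Changed genes were drawn at random from all genes, so the rates are not those of the members.

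Ratios were searched for the pair of whole numbers, up to 8000, that gives them within 1e-09. Between 86.2% and 86.7% of an array's ratios were recovered, against at most 2.13% after a random shift. The rank correlation of the recovered signals was 0.588 to 0.646 over the 36 array pairs within days 2 to 7 and -0.017 to 0.014 over the 27 pairs that set day 1 against a later day, so the 3 samples of day 1 were left out. Ratios of the 9 arrays correlated between -0.11 and 0.15.

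The members and lists were chosen with earlier results of these data known. Named were all members, in each related list the 2 genes with the highest and the 2 with the lowest moderated t for the mean of the 3 days, any related gene past the threshold, and for each member the 2 genes with the smallest root mean square difference. Alternatives were another variance prior, day-wise fits, no centring, quantile normalization, the brightest probe set, a brightness filter, array weights, a replicate block and leaving out each sample.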

Additional observations from a re-analysis of the deposited data

Results flagged for a closer look

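Cbs at day 7 minus day 4 is listed because each of the 3 samples of day 4 was above 0 and each of the 3 of day 7 below 0. Day 7 lay entirely below day 4 for 11.1% of all genes, and 11.7% had an unadjusted p under 0.05 in that comparison (limma). The 1 member of 7 is near these shares. The Cbs difference was -0.57, with an unadjusted p of 0.0432 and an adjusted p of 0.411 in limma. Over the alternatives it lay between -0.66 and -0.45 with adjusted p from 0.255 to 0.699. Leaving out each sample in turn gave -0.66 to -0.46 for this difference. Groups of 3 samples are too small to call a single sample outlying.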

How the results depend on the processing

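None of the 805 alternative values of the 49 member results (7 genes, 7 comparisons) passed the threshold, 34 results kept their sign in each alternative run, and 23 values changed sign. Without centring, day 7 minus day 4 came to 0.020 for Mat1a and 0.077 for Bhmt, and with array weights to 0.0021 for Bhmt. Leaving out single samples gave ranges across 0 at day 2 for Mat1a (-0.013 to 0.19), Bhmt (-0.11 to 0.30), Cbs (-0.41 to 0.0015) and Cth (-0.054 to 0.12), at day 4 for Mat1a (-0.15 to 0.0030), at day 7 for Gnmt (-0.25 to 0.15) and Sardh (-0.20 to 0.0090) and in the mean of the 3 days for Sardh (-0.058 to 0.011). The same held for day 4 minus day 2 for Gnmt (-0.19 to 0.079) and Dmgdh (-0.37 to 0.12), and for day 7 minus day 4 for Gnmt (-0.35 to 0.048), Bhmt (-0.42 to 0.23), Cth (-0.37 to 0.16) and Sardh (-0.061 to 0.15). The count of all genes called was 14 at day 2, 6 at day 7, 34 in the mean and 2 for day 7 minus day 4 with a variance prior that follows brightness. With quantile normalization it was 1 at day 4, 2 in the mean and 1 for day 4 minus day 2. Without the probe sets below the lowest quartile of brightness it was 3 at day 2 and 8 in the mean, and with array weights 2 at day 4. Leaving out 1 sample gave 0 to 1 genes at day 2, day 4, day 7, day 4 minus day 2 and day 7 minus day 4, and 0 to 3 in the mean, against 4. The cause was not tested. The labels number the samples of each day and do not say whether equal numbers mark a pair. The deviations of same-numbered samples from their day means correlated between -0.041 and 0.068 over the 9 pairs. Those of differently numbered samples correlated between -0.12 and 0.11 over 18 pairs. With 3 samples per day these values cannot decide whether samples were paired. With a replicate block, 0 members and 0 genes were called in the mean of the 3 days, with 893 genes at an unadjusted p under 0.05.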
